A study of Mus musculus with 13 samples.

Results

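The genes described here are 43 genes of glucose use in mouse macrophages. They comprise 22 genes of glycolysis, 6 of pyruvate entry into mitochondrial metabolism, 8 of the pentose phosphate pathway and 7 of glycogen metabolism, out of 27680 gene names on the array. They were chosen by name as genes of these pathways, and each of the 43 had at least 1 probe. Of these, 41 passed the filter on dim probes and were tested among 20546 genes. The 2 that did not were Gys1, the muscle-type glycogen synthase, whose probe was well above background on 6 of 13 arrays, and Shpk, sedoheptulokinase, whose probes were so on 6 and 1 arrays. The array's names Pkm2, Pgm2 and Pgm1 were updated through RefSeq accessions: Pkm2 is given as Pkm, and the current names Pgm1 and Pgm2 are the reverse of those on the array.

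One-colour arrays measured RNA from 13 samples of macrophages grown from bone marrow, in 4 groups: knockout (KO) IL-4 (n = 3), control IL-4 (n = 3), KO vehicle (n = 3) and control vehicle (n = 4). Marrow came from male C57BL/6 mice aged 12 to 16 weeks and was grown for 6 days in 30% L929-conditioned medium, a source of macrophage growth factor. All groups carried Hdac3 with exons 4 to 7 between loxP sites. KO cells also carried Cre under the lysozyme M promoter, which is active in myeloid cells, so loss of HDAC3 and presence of Cre cannot be told apart. IL-4, a cytokine that drives alternative activation of macrophages, was given at 10 ng/mL for 24 hours, and vehicle was 0.1% bovine serum albumin. Whether each array stands for its own animal or culture is not stated in the labels, and the p-values then reflect array-to-array spread that may be technical.

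Glycolysis splits glucose into pyruvate, and lactate dehydrogenase interconverts pyruvate and lactate. The pyruvate dehydrogenase complex instead turns pyruvate into acetyl-CoA for the mitochondria, and its kinases switch it off. The pentose phosphate pathway draws on glucose 6-phosphate to make NADPH and ribose, and glycogen is the stored form of glucose. Macrophages activated by bacterial products are known for high glycolysis, while those activated by IL-4 are known for oxidative metabolism that still takes up glucose.

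Levels are given as log2 of the processed signal minus the 75th percentile of the same array, so that 0 is that percentile and a step of 1 is a 2-fold change. Levels of different probes are not compared with each other. Hdac3 itself was at -3.21, -3.41 and -4.08 on KO IL-4 arrays 13, 14 and 15 and at -1.95, -2.34 and -1.85 on control IL-4 arrays 9, 10 and 12. It was at -3.71, -3.16 and -3.51 on KO vehicle arrays 5, 6 and 7, against -1.75, -2.18, -2.05 and -2.21 on control vehicle arrays 1 to 4. The genotypes did not overlap under either treatment, and whether the probe falls within the deleted exons was not determined. Of the 3 KO IL-4 arrays, 2 had this probe well above background. The KO minus control difference was -1.53 under IL-4 and -1.41 in vehicle (limma adjusted p = 0.00376 and 0.00288). All 9 macrophage markers examined were well above background on every array, but they did not stay level. Of the 9, 3 were called with HDAC3 loss in vehicle (2 higher, 1 lower), 4 with HDAC3 loss under IL-4 (3 higher, 1 lower), 5 with IL-4 in control cells (0 higher, 5 lower) and 2 with IL-4 in KO cells (0 higher, 2 lower; limma). Their summed linear level ran from 421.3 to 456.6 on KO IL-4 arrays, 385.6 to 407.9 on control IL-4 arrays, 462.4 to 491.7 on KO vehicle arrays and 483.7 to 542.1 on control vehicle arrays, in units of the 75th percentile. Of 8 tested early stress genes, 2, 2, 3 and 1 were called in the same 4 comparisons (25%, 25%, 37.5% and 12.5%). For the macrophage markers the shares were 33.3%, 44.4%, 55.6% and 22.2%. Of all genes, 4.76%, 3.66%, 5.78% and 2.24% were called in these comparisons. The part of these markers in the results below was not tested. The share of spots well above background ran from 56.2% on control vehicle array 4 to 83.2%. The arrays lay on 4 slides, and each group always sat at the same slide position. Group and position therefore cannot be told apart. In these bulk samples, fewer cells expressing a gene and less RNA per cell cannot be told apart either.

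Each of the 4 comparisons called 2 or 3 of the 41 tested members. With HDAC3 loss in vehicle, 3 of 41 members rose (Ldhb, Hk3 and Rpia) and none fell, at a limma adjusted p under 0.05, where 4.76% of all genes were called (2.44% higher, 2.33% lower). With HDAC3 loss under IL-4, 1 member rose (Ldhb) and 1 fell (Ppp1r3c), where 3.66% of all genes were called (1.99% higher, 1.67% lower). IL-4 in control cells raised 2 members (Ppp1r3c and Pfkfb4) and lowered none, where 5.78% of all genes were called (2.68% higher, 3.1% lower). IL-4 in KO cells raised the same 2 and lowered Aldoc, where 2.24% of all genes were called (1.13% higher, 1.11% lower). These counts are 7.32%, 4.88%, 4.88% and 7.32% of the 41, against 4.76%, 3.66%, 5.78% and 2.24% of all genes. Each count is a few genes. Ppp1r3c passed the filter on dim probes only through the control IL-4 group, where it is high, so its 3 calls are values of that probe and no support for a change of the members. Comparisons of genotype and of treatment share arrays, so calls in them are not independent.

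**Figure D1:**
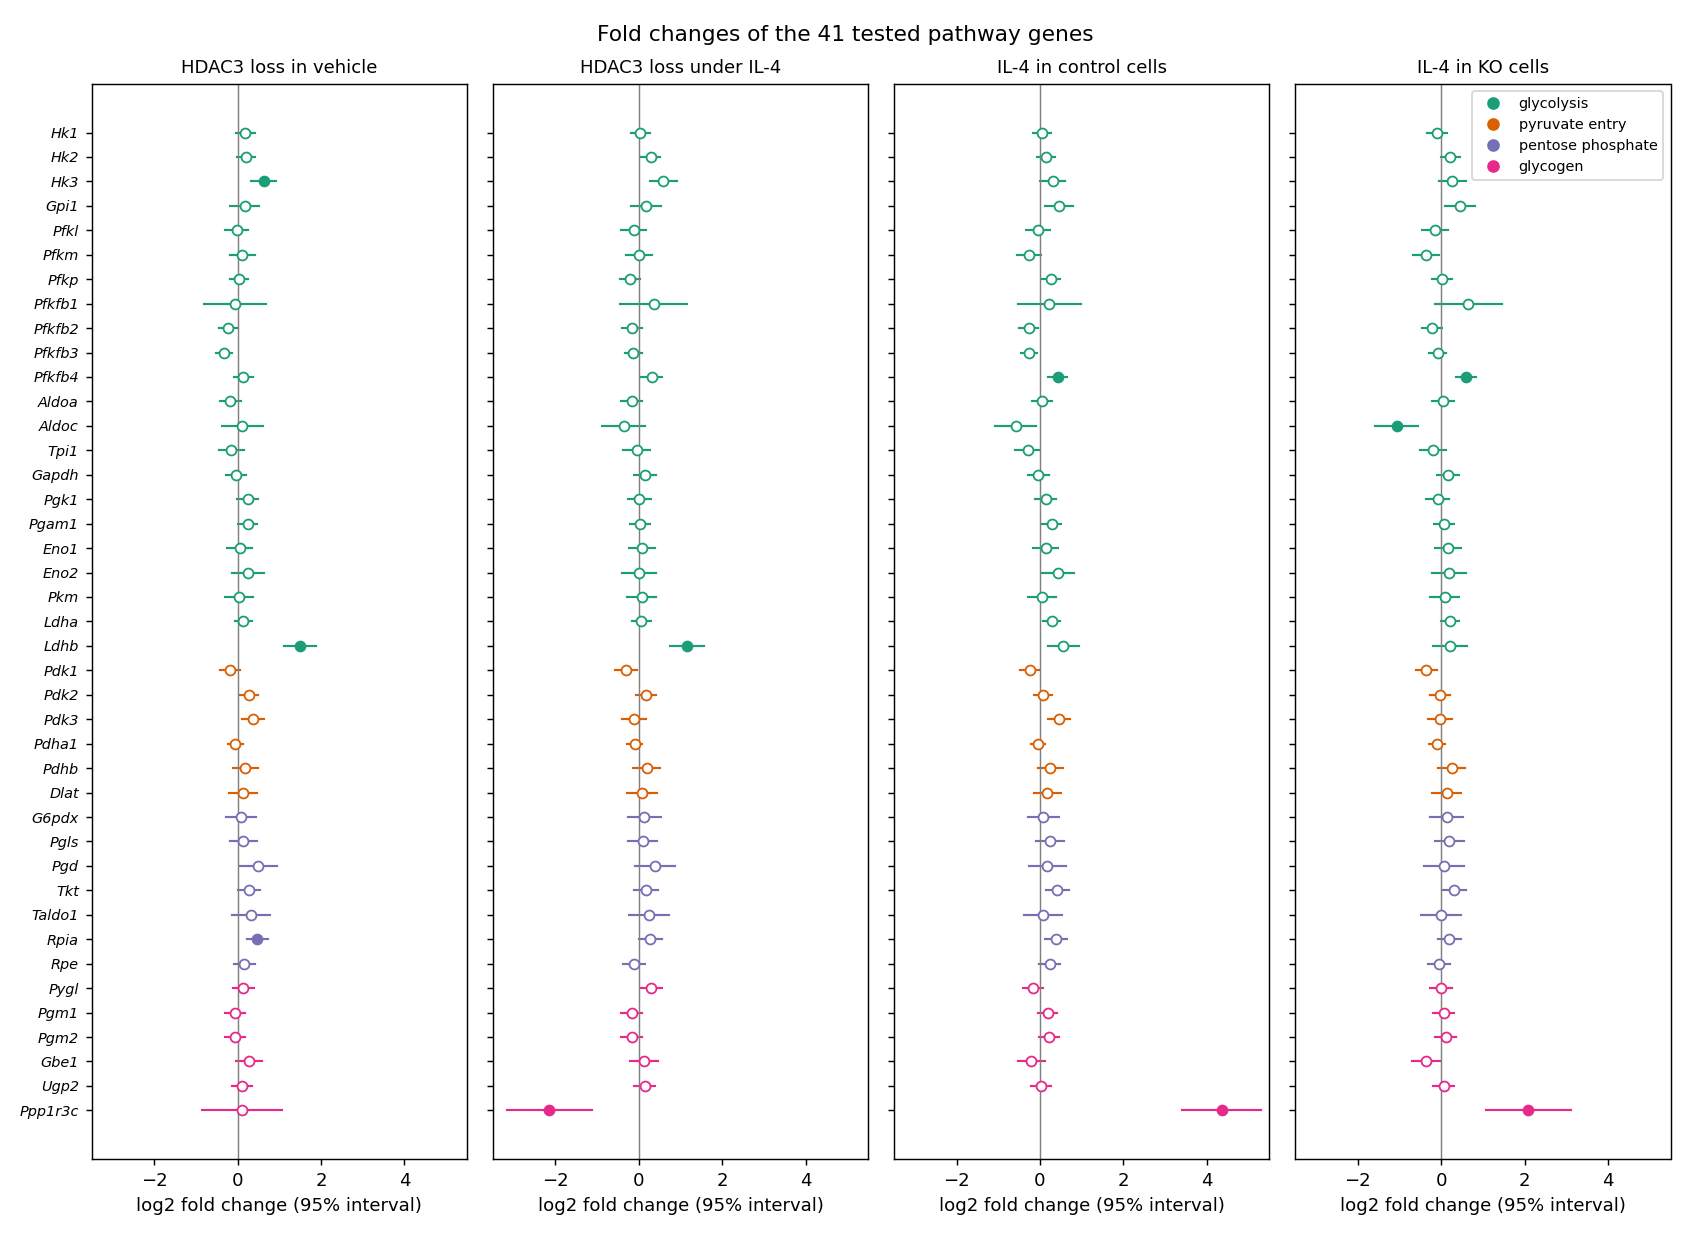
Log2 fold change (x axis) of each of the 41 tested genes (rows, coloured by branch) in the 4 comparisons, with 95% intervals of the limma fit as bars; filled circles have an adjusted p under 0.05. Most genes lie close to 0, and Ldhb and Ppp1r3c stand furthest from it. The Ppp1r3c values with IL-4 are fitted against vehicle arrays where its probe was not well above background.

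The groups did not overlap for 13 of 41 members with HDAC3 loss in vehicle (31.7%, against 16.9% of all genes). With HDAC3 loss under IL-4 they did not overlap for 9 members (22.0%, against 17.8%). With IL-4 the count was 17 in control cells (41.5%, against 16.7%) and 11 in KO cells (26.8%, against 18.6%). The size of most differences was bounded. In HDAC3 loss in vehicle and in IL-4 in control cells, the 95% interval of the fold change lay within 2-fold either way for 39 of 41 members each, against 85.1% and 83.9% of all genes. In HDAC3 loss under IL-4 and in IL-4 in KO cells it did so for 38 of 41 members each, against 80.7% and 81.8% of all genes. Members also varied less between arrays of a group than all genes did. Their median SD was 0.121 to 0.174 by group, against 0.149 to 0.244. The part of this lower SD in the shares without overlap and within 2-fold was not tested. The median log2 fold change of the members was 0.14 for HDAC3 loss in vehicle, beside 0.02 over all genes. It was 0.07 for HDAC3 loss under IL-4, beside -0.03 over all genes, but -0.02 without control IL-4 array 10, 0.0051 without KO IL-4 array 14, 0.10 without KO IL-4 array 15 and 0.11 without control IL-4 array 9. IL-4 in control cells gave 0.14, beside -0.0019 over all genes, with 0.05 without control IL-4 array 9 and 0.23 without array 10. IL-4 in KO cells gave 0.07, beside -0.06 over all genes, with -0.0039 without KO vehicle array 7, 0.0032 without KO IL-4 array 14, 0.13 without KO vehicle array 6 and 0.11 without KO IL-4 array 15. Leaving out 1 array thus turned the sign of the members' median for HDAC3 loss under IL-4 and for IL-4 in KO cells. At an unadjusted limma p under 0.05 there were 8 members for HDAC3 loss in vehicle (19.5%, against 13.7% of all genes). For HDAC3 loss under IL-4 there were 8 (19.5%, against 15%). For IL-4 there were 15 in control cells (36.6%, against 14.6%) and 8 in KO cells (19.5%, against 12.4%).

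Upstream sequences are shown for the genes called in both genotype comparisons (Ldhb) or in both IL-4 comparisons (Ppp1r3c and Pfkfb4). The Ldhb window lies at chr6:142507958-142508207 and the Ppp1r3c window at chr19:36736605-36736854, both on the minus strand, and the Pfkfb4 window at chr9:108991652-108991901 on the plus strand. Each is the 250 bases before the annotated start, 5′ to 3′ on the gene's strand, from RefSeq (GRCm38.p6), with capitals for letters searched on both strands: a STAT6-type motif of TTC and GAA with any 4 bases between; ACGTG and GCGTG, cores of hypoxia response elements; and CACGTG, an E-box that holds ACGTG on both strands.
Ldhb: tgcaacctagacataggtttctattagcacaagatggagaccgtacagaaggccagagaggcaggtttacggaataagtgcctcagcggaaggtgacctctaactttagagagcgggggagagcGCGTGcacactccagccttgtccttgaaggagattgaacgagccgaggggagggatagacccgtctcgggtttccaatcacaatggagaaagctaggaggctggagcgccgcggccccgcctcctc
Ppp1r3c: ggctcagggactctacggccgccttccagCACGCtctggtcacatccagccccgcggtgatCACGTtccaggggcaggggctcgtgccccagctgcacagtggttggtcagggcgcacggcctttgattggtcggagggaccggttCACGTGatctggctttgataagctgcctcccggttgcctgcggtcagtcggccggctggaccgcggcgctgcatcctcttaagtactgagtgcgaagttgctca
Pfkfb4: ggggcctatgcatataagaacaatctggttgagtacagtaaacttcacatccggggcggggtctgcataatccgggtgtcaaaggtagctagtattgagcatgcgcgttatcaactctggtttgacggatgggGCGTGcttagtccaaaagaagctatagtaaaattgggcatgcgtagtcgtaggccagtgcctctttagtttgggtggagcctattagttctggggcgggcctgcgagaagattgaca
The Ppp1r3c window held CACGTG once, starting 104 bases before the start, besides 1 further ACGTG and 1 GCGTG, each read on the opposite strand. The Ldhb and Pfkfb4 windows each held GCGTG once. None of the 3 held the STAT6-type letters.

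All 43 members matched the promoter table, with 64 windows between them. ACGTG was present in 22 of the 64 windows (34.4%), against 16.6% of all 32851 windows, and GCGTG in 33 (51.6%), against 28.2%. The members' windows had a median GC content of 59.8%, against 52.4% over all windows, and the part of this in the shares of GCGTG and ACGTG was not tested. The STAT6-type letters were in 4 windows (6.25%, against 5.85%) and CACGTG in 6 (9.38%, against 6.02%). These are matches of letters and not sites of binding.

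Among the hexokinases, which trap glucose as glucose 6-phosphate, Hk3 rose with HDAC3 loss and Hk1 and Hk2 passed no test. Hk3, the hexokinase typical of myeloid cells, was at 1.78, 1.89 and 1.56 on KO vehicle arrays and at 0.91, 1.06, 1.32 and 1.19 on control vehicle arrays. Every KO vehicle array lay above every control vehicle array, and the mean was 1.54-fold higher (log2 fold change 0.62, SE 0.139, limma adjusted p = 0.0255). Under IL-4 the levels were 1.90, 2.24 and 1.89 in KO cells and 1.60, 1.24 and 1.43 in control cells, again without overlap, with a log2 fold change of 0.59 that missed the threshold (adjusted p = 0.0557, limma). The Hk3 probe lies at chr13:55107900-55107959 (mm9). The vehicle call was lost in 9 of 23 alternatives: its limma adjusted p was 0.151 with median scaling, 0.0779 with slide as a block, 0.0726, 0.069 and 0.0533 without control vehicle array 1, 2 or 4, and 0.115 and 0.139 without KO vehicle array 5 or 6. Within slides 1, 2 and 3 the KO minus control difference was 0.86, 0.84 and 0.24. Hk2, the inducible hexokinase, was also at higher levels on every KO vehicle array (2.60 to 2.75) than on every control vehicle array (2.38 to 2.53), and its log2 fold change of 0.21 had an adjusted p of 0.399.

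Among the enzymes that set the pace of glycolysis at fructose 6-phosphate, only Pfkfb4 was called with the probes used. Phosphofructokinase commits the sugar to glycolysis, and its genes Pfkl, Pfkm and Pfkp were called in no comparison by the probes used. The PFKFB genes encode enzymes that make and break fructose 2,6-bisphosphate, an activator of phosphofructokinase. Pfkfb4 was at 2.01, 2.34 and 2.05 on KO IL-4 arrays and at 1.53, 1.58 and 1.50 on KO vehicle arrays, 1.51-fold higher with IL-4 (log2 fold change 0.60, SE 0.114, limma adjusted p = 0.0177). In control cells Pfkfb4 was at 1.97, 1.74 and 1.74 with IL-4, against 1.27, 1.37, 1.51 and 1.43 with vehicle, 1.34-fold higher (log2 fold change 0.42, SE 0.107, adjusted p = 0.0397, limma). In neither genotype did the treatments overlap, and within the slides that held both treatments the IL-4 difference was 0.48, 0.76 and 0.55 in KO cells and 0.70, 0.37 and 0.31 in control cells.

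Both Pfkfb4 calls rest near the threshold. The call in control cells was lost in 16 of 23 alternatives, including 11 of the 13 that leave out 1 array, where the adjusted p was highest without control IL-4 array 9 (0.171). It was 0.114, 0.0938, 0.0542 and 0.0832 without control vehicle array 1, 2, 3 or 4, 0.071 and 0.0865 without control IL-4 array 10 or 12, 0.0675, 0.0623 and 0.0592 without KO vehicle array 5, 6 or 7, and 0.0545 without KO IL-4 array 15. The call in KO cells was lost in 8 of 23, with 0.0719, 0.0559 and 0.0876 without KO vehicle array 5, 6 or 7 and 0.0522 without KO IL-4 array 14. With slide as a block the limma adjusted p of Pfkfb4 was 0.0616 in KO cells and 0.116 in control cells. Its single probe lies at chr9:108934627-108934686 (mm9).

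Pfkfb3, another of these enzymes and one with high kinase activity, stood lower with HDAC3 loss and with IL-4 without passing the test. Its levels were 5.11, 5.19 and 5.11 on KO vehicle arrays and 5.53, 5.35, 5.38 and 5.56 on control vehicle arrays (log2 fold change -0.32, limma adjusted p = 0.0646). On control IL-4 arrays it was at 5.18, 5.13 and 5.24, also below every control vehicle array (log2 fold change -0.27, adjusted p = 0.112). With the authors' deposited values both differences passed, at adjusted p of 0.0118 and 0.0102 (limma). Pfkfb2 differed by -0.22 with HDAC3 loss in vehicle and by -0.27 with IL-4 in control cells, without overlap and with adjusted p of 0.373 and 0.213. Pfkfb1 was dim, between -3.59 and -1.81, and its intervals were wide.

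Pfkp, the platelet-type phosphofructokinase, depended on the probe. The brightest of its 3 probes differed by 0.27 with IL-4 in control cells (adjusted p = 0.216 over genes, limma). A second probe, at chr13:6581718-6583872 (mm9), differed by 0.87 in control cells and 0.75 in KO cells, with adjusted p over all probes of 0.00246 and 0.0197. The third differed by -0.06 and -0.24. Since the probes did not move together, no single direction is given for the gene.

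**Figure D2:**
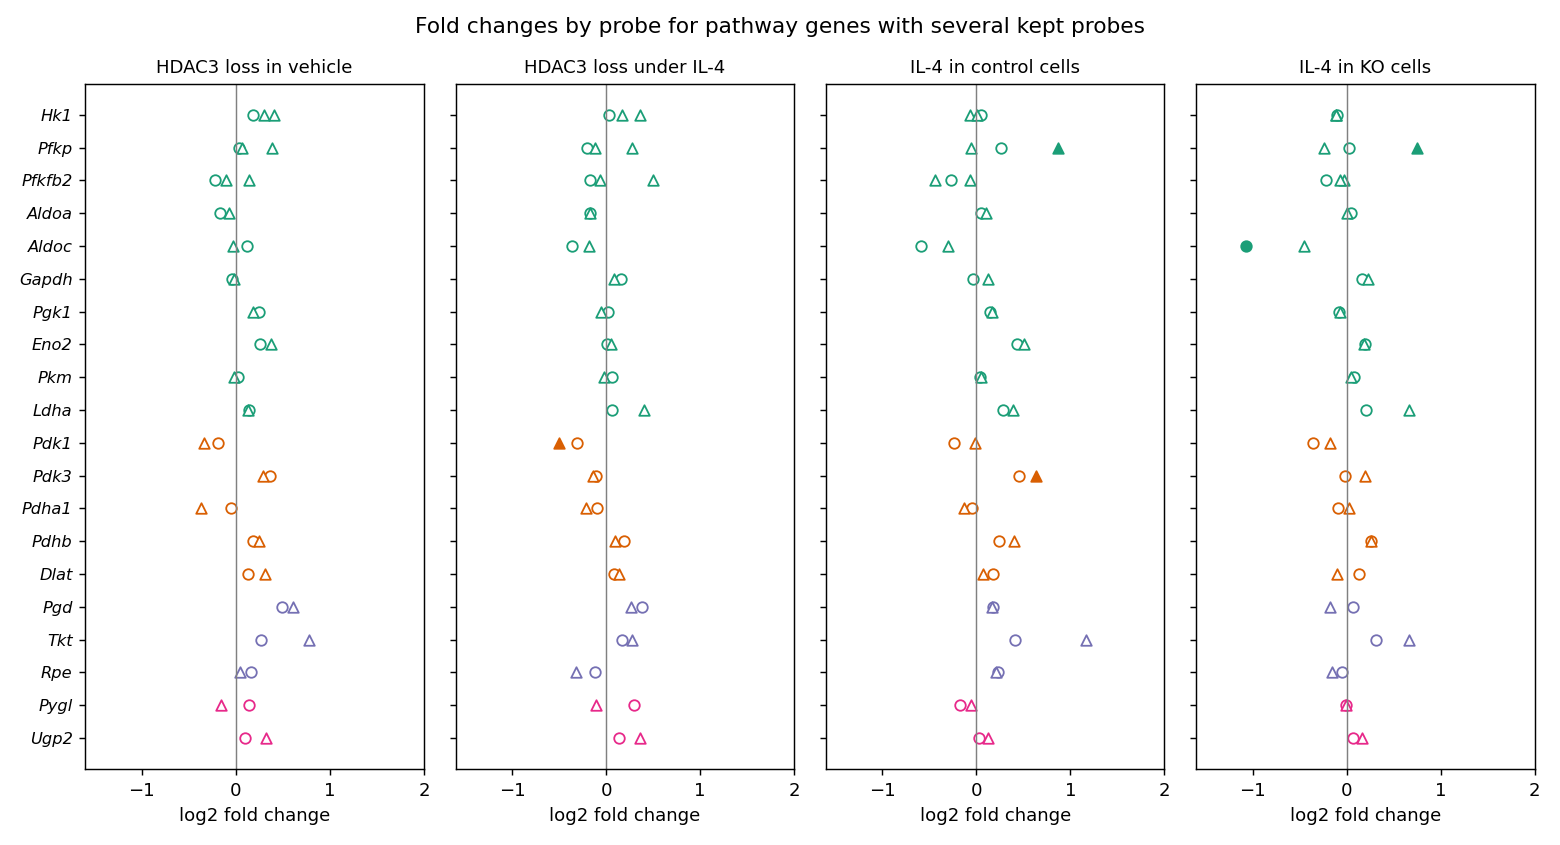
Log2 fold change (x axis) of every kept probe of the genes with more than 1 kept probe (rows), in 4 comparisons; circles are the probes used for the gene, triangles the others, and filled symbols have an adjusted p over all probes under 0.05. In IL-4 in control cells the probes of Pfkp (-0.06 to 0.87) and Tkt (0.41 to 1.16) lie furthest apart.

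The aldolases split fructose 1,6-bisphosphate, and Aldoc, the brain-type form, fell with IL-4 in KO cells. Aldoc was at -1.98, -2.18 and -1.59 on KO IL-4 arrays and at -1.17, -1.13 and -0.26 on KO vehicle arrays, which leaves 47.8% of the KO vehicle level (log2 fold change -1.06, SE 0.238, limma adjusted p = 0.0416). The treatments did not overlap, and KO vehicle array 7 stood well above the other two. In control cells Aldoc was at -1.58, -1.51 and -1.57 with IL-4, against -0.75, -0.80, -1.09 and -1.24 with vehicle, also without overlap (log2 fold change -0.58, adjusted p = 0.214, limma). The call in KO cells was lost in 17 of 23 alternatives. The adjusted p was 0.0573 and 0.113 without KO vehicle array 6 or 7, 0.093 and 0.161 without KO IL-4 array 13 or 14, from 0.0527 to 0.0656 without any 1 control vehicle array, from 0.0602 to 0.07 without any 1 control IL-4 array, and 0.0535 with slide as a block. The other Aldoc probe differed by -0.45 (adjusted p over probes 0.363). Both probes lie on chromosome 11, at 78139964 to 78140023 for the one used and 78141189 to 78141248 for the other (mm9). Aldoa, the main aldolase of most cells, differed by between -0.17 and 0.05 in the 4 comparisons by the probe used. Its other probe differed by between -0.17 and 0.11.

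From triose phosphate to pyruvate, no gene was called in any of the 4 comparisons (limma). These are Tpi1, Gapdh, Pgk1, Pgam1, Eno1, Eno2 and Pkm. Gapdh, which makes the NADH of glycolysis, differed by -0.04 with HDAC3 loss in vehicle (95% interval -0.29 to 0.21) and by 0.16 under IL-4. Pkm, pyruvate kinase of muscle and macrophage type, differed by 0.03 (-0.30 to 0.36) and 0.07. Pgam1, phosphoglycerate mutase, was at 6.44, 6.55 and 6.29 on KO vehicle arrays and 6.62, 6.33 and 6.46 on control IL-4 arrays, all above the control vehicle arrays at 6.28, 6.00, 6.23 and 6.22. Its log2 fold change was 0.25 for HDAC3 loss and 0.29 for IL-4 in control cells, with adjusted p of 0.311 and 0.192. Gpi1, which isomerises glucose 6-phosphate, was 0.46 higher with IL-4 in both genotypes without overlap, at adjusted p of 0.246 in KO cells and 0.138 in control cells, and in control cells at 0.0427 without KO IL-4 array 14. Gapdh has pseudogenes and Eno1 a near-identical copy, so which gene their probes report is uncertain.

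Lactate dehydrogenase differed between genotypes in 1 of its 2 subunits. Ldhb, the heart-type subunit, favours the conversion of lactate to pyruvate. It was at 1.21, 1.40 and 1.22 on KO vehicle arrays and at -0.37, -0.18, -0.40 and 0.06 on control vehicle arrays, 2.82-fold higher (log2 fold change 1.50, SE 0.173, limma adjusted p = 5e-04). Under IL-4 Ldhb was at 1.23, 1.81 and 1.45 in KO cells and at 0.47, 0.01 and 0.55 in control cells, 2.22-fold higher (log2 fold change 1.15, SE 0.185, adjusted p = 0.00491, limma). The genotypes overlapped under neither treatment, and the lowest KO array of all stood above the highest control array of all. Within slides 1, 2 and 3 the KO minus control difference in vehicle was 1.57, 1.59 and 1.62, and within slides 1 and 2 under IL-4 it was 0.76 and 1.80.

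The Ldhb call in vehicle held in all 23 alternatives tried. The call under IL-4 held in 22 and was lost in a fit of only the groups compared (adjusted p = 0.0894). IL-4 itself left Ldhb below the threshold: its log2 fold change was 0.22 in KO cells (adjusted p = 0.681) and 0.56 in control cells (adjusted p = 0.0951), and without control IL-4 array 10 the value in control cells was 0.73 with an adjusted p of 0.04 (limma). The probe lies at chr6:142438838-142438897 (mm9), on the minus strand. Ldha, the muscle-type subunit that favours lactate formation, differed by 0.14 with HDAC3 loss in vehicle (95% interval -0.07 to 0.34) and by 0.06 under IL-4 (-0.16 to 0.29). With IL-4 every array stood above every vehicle array for Ldha in both genotypes, by 0.21 in KO cells and 0.28 in control cells, with adjusted p of 0.433 and 0.138. The other Ldha probe, which is dimmer, differed by 0.13 with HDAC3 loss in vehicle and by 0.40 under IL-4, above the interval of the probe used, and by 0.66 with IL-4 in KO cells and 0.39 in control cells, with adjusted p over probes of 0.896, 0.245, 0.0561 and 0.205 (limma).

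**Figure D3:**
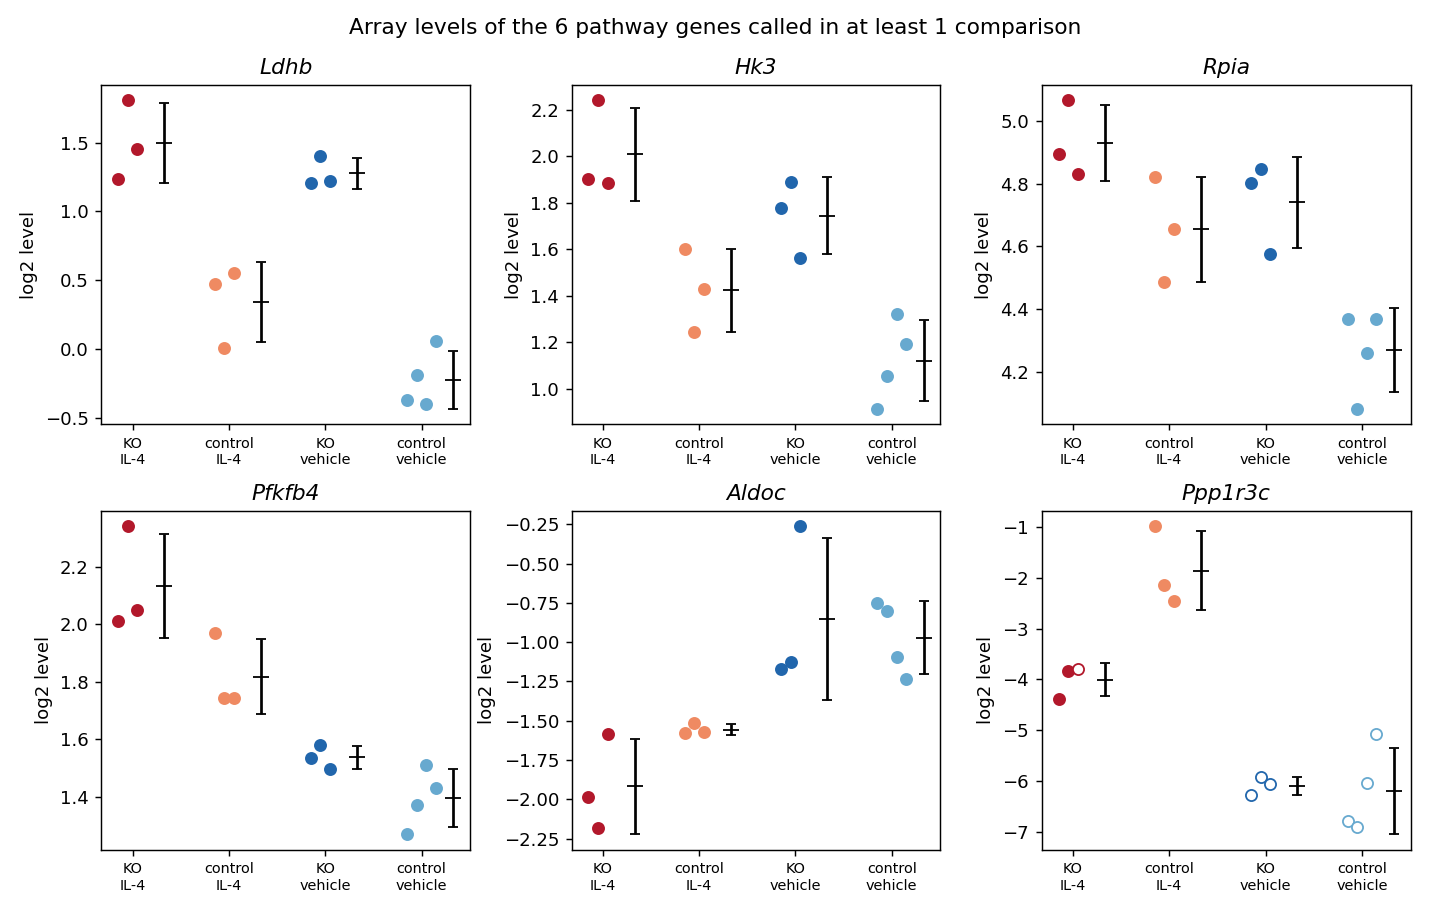
Log2 level relative to the array's 75th percentile (y axis) of the 6 genes called in at least 1 comparison, for each array of the 4 groups; open circles mark arrays where the probe was not well above background, and the bars give the mean and SD of the group. For Ldhb the KO arrays lie above all control arrays, and for Ppp1r3c the control IL-4 arrays lie above all others.

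Of the 6 genes of pyruvate entry, none was called in any comparison (limma). An unadjusted p under 0.05 was found for 2 with HDAC3 loss in vehicle (13.7% of all genes), 1 with HDAC3 loss under IL-4 (15%), 2 with IL-4 in control cells (14.6%) and 1 with IL-4 in KO cells (12.4%). By the probes used, the pyruvate dehydrogenase subunits Pdha1, Pdhb and Dlat differed by between -0.10 and 0.26 over the 4 comparisons. Their second probes went outside this range. With HDAC3 loss in vehicle that of Pdha1 differed by -0.37 and that of Dlat by 0.31. With IL-4 in control cells that of Pdhb differed by 0.40 (limma adjusted p over probes 0.174, 0.272 and 0.118). Pdk1, Pdk2 and Pdk3 encode kinases that inactivate this complex. Pdk3 was at 0.10, 0.43 and 0.25 on control IL-4 arrays and at -0.26, -0.15, -0.19 and -0.16 on control vehicle arrays, without overlap (log2 fold change 0.45, SE 0.122, limma adjusted p = 0.0552). In KO cells Pdk3 was at 0.15, 0.23 and 0.07 with IL-4 and 0.23, 0.39 and -0.10 with vehicle, which overlapped (log2 fold change -0.02). The difference between these responses was -0.47, with an unadjusted p of 0.0223 and an adjusted p of 1 (limma). A second Pdk3 probe differed by 0.64 with IL-4 in control cells, with an adjusted p over probes of 0.00488, and the mean of both probes gave 0.00601 over genes. The probe used passed the test without KO vehicle array 6 or 7 (adjusted p = 0.0463 and 0.0253). Without KO vehicle array 7 it also passed for HDAC3 loss in vehicle, at 0.50 with 0.0352, against 0.36 with 0.153 on all arrays (limma).

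By the probe used, Pdk1 stood lower with IL-4 in both genotypes. It was at 1.55, 1.31 and 1.67 on KO IL-4 arrays and 1.87, 1.74 and 1.98 on KO vehicle arrays, and at 1.72, 1.90 and 1.84 on control IL-4 arrays against 1.98, 2.08, 1.98 and 2.19 on control vehicle arrays. The treatments did not overlap in either genotype, and the log2 fold changes of -0.35 and -0.24 missed the threshold (limma adjusted p = 0.193 and 0.341). With IL-4 its other probe differed by only -0.02 in control cells and -0.18 in KO cells (limma adjusted p over probes 0.972 and 0.604). That probe differed by -0.50 with HDAC3 loss under IL-4 (adjusted p over probes 0.046), where the probe used gave -0.31 (adjusted p over genes 0.226).

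In the pentose phosphate pathway 1 of 7 tested genes was called. Rpia, ribose 5-phosphate isomerase, was at 4.80, 4.85 and 4.58 on KO vehicle arrays and at 4.37, 4.08, 4.26 and 4.37 on control vehicle arrays. The groups did not overlap, and Rpia was 1.39-fold higher with HDAC3 loss (log2 fold change 0.47, SE 0.118, limma adjusted p = 0.0429). Under IL-4 it was at 4.89, 5.07 and 4.83 in KO cells and 4.82, 4.49 and 4.66 in control cells, with no overlap and a log2 fold change of 0.28 (adjusted p = 0.332). The call in vehicle was lost in 14 of 23 alternatives. The adjusted p was 0.292 with median scaling and 0.0734 with slide as a block. It was 0.0681, 0.113, 0.104 and 0.0698 without control vehicle array 1, 2, 3 or 4, 0.195 and 0.202 without KO vehicle array 5 or 6, 0.0698 without control IL-4 array 12, and 0.0609 and 0.0578 without KO IL-4 array 13 or 15. Its probe lies at chr6:70715710-70715770 (mm9).

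The differences of the 7 tested genes of that pathway were small and mostly above 0. For HDAC3 loss in vehicle all 7 were above 0, from 0.08 for G6pdx, which catalyses the first step, to 0.49 for Pgd, which makes the second NADPH. Over all genes 54.8% of differences were above 0 in that comparison. IL-4 in control cells also gave 7 of 7 above 0, from 0.08 to 0.41, where 49.7% of all genes were above 0. HDAC3 loss under IL-4 gave 6 of 7 (45.6% of all genes) and IL-4 in KO cells 5 of 7 (39.8%). The comparisons with 7 of 7 share the control vehicle arrays. Pgd was at 4.34, 4.36 and 4.03 on KO vehicle arrays and 3.88, 3.44, 3.89 and 3.79 on control vehicle arrays, without overlap and with an adjusted p of 0.289 (limma). Tkt, transketolase, was at 1.55, 1.09 and 1.38 on control IL-4 arrays and 1.07, 0.75, 1.04 and 0.85 on control vehicle arrays. Its log2 fold change of 0.41 had an adjusted p of 0.0891, and without control IL-4 array 10 it was 0.54 with 0.0356. A dimmer Tkt probe, well above background on 8 of 13 arrays, differed by 1.16 (adjusted p over probes 0.088). Taldo1, transaldolase, differed by 0.32 with HDAC3 loss in vehicle and Pgls, the lactonase, by 0.14, both with overlapping groups. Control vehicle array 2 was the lowest of its group for 5 of the 7.

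Glycogen genes were quiet apart from Ppp1r3c. Pygl, the liver-type phosphorylase that breaks glycogen down, Pgm1, which interconverts glucose phosphates, and its relative Pgm2 were called in no comparison (limma). Nor were Ugp2, which makes UDP-glucose, and Gbe1, the branching enzyme. By the probes used, the log2 fold changes of Pygl, Pgm1, Pgm2, Ugp2 and Gbe1 ran from -0.36 for Gbe1 with IL-4 in KO cells to 0.30 for Pygl with HDAC3 loss under IL-4. In that last comparison the dimmer Pygl probe differed by -0.11. The dimmer Ugp2 probe differed by 0.36 there and by 0.32 with HDAC3 loss in vehicle (limma adjusted p over probes 0.865, 0.342 and 0.408). Gbe1 was at 4.00, 3.85 and 3.88 on KO IL-4 arrays and 4.34, 4.36 and 4.10 on KO vehicle arrays, without overlap and with an adjusted p of 0.378.

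Ppp1r3c, also known as protein targeting to glycogen, brings protein phosphatase 1 to glycogen and so favours glycogen synthesis. It was at -0.98, -2.14 and -2.45 on control IL-4 arrays and at -6.80, -6.92, -6.04 and -5.08 on control vehicle arrays. The probe was well above background on all 3 control IL-4 arrays and on none of the 7 vehicle arrays, so its level with vehicle is only bounded. It passed the filter only through the control IL-4 group. On the processed signals it was at least 4.71-fold higher with IL-4 in control cells (limma adjusted p = 9.84e-05 on the measured values, and 0.000269 among all genes with no filter; group means -1.85 ± 0.777, SD, n = 3, and -6.21 ± 0.848, SD, n = 4). In the bound, each vehicle array counts at the higher of the probe's own value and the lowest signal that was well above background on that array. Within slides 1, 2 and 4 the control IL-4 array was the higher one, and no size is given because none of these vehicle arrays had the probe well above background. The adjusted p was under 0.05 in all 22 alternatives that gave a value. Except with no filter, these alternatives still chose the probe through a filter on dim probes. With no filter the probe was still chosen as the gene's brightest over all arrays, control IL-4 arrays included. None of the alternatives was therefore free of selection by the high group. The size was not stable. With normexp, which adds an offset of 50 to every signal, the log2 fold change was 1.57 (adjusted p = 6.95e-05), which is less than the bound above and than the 4.35 fitted to the processed signals.

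In KO cells Ppp1r3c was at -4.38, -3.83 and -3.80 with IL-4, against -6.28, -5.93 and -6.07 with vehicle. It was well above background on KO IL-4 arrays 13 and 14 and on no KO vehicle array. The measured values gave a limma adjusted p of 0.0413 for IL-4 in KO cells, and no fold or bound is given because array 15 of the higher group was itself not well above background. With no filter on dim probes this p was 0.0766, and with normexp 0.145. Every KO IL-4 array lay above every KO vehicle array and below every control IL-4 array. The fitted log2 fold change of KO IL-4 over control IL-4 cells was -2.15 (SE 0.467, adjusted p = 0.0257, limma) and includes array 15 at a value that was not well above background. Without array 15 it was -2.25 (adjusted p = 0.0612), with no filter the adjusted p was 0.0486, and with normexp the log2 fold change was -0.98 (adjusted p = 0.00788). The difference between the IL-4 responses was -2.26 (SE 0.639), with an adjusted p of 0.872, and rests on vehicle values that were not well above background.

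Both calls that involve KO IL-4 cells were lost in several alternatives. The call with IL-4 in KO cells was lost in 13 of 21, with an adjusted p of 0.0997 with slide as a block and 0.0591 with the authors' values. It was 0.147, 0.103 and 0.141 without KO vehicle array 5, 6 or 7, 0.0553, 0.142 and 0.134 without KO IL-4 array 13, 14 or 15, 0.0659 without control vehicle array 3 and 0.0613 without control IL-4 array 10. The lower level in KO IL-4 cells was lost in 7 of 22. Its adjusted p was 0.102 with slide as a block, 0.0918 and 0.0603 without control IL-4 array 9 or 10, and 0.077 and 0.0675 without KO IL-4 array 13 or 14, besides that without array 15 (limma). A second probe of the gene was well above background on 0 arrays. The probe used lies at chr19:36806457-36806516 (mm9), on the minus strand.

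**Figure D4:**
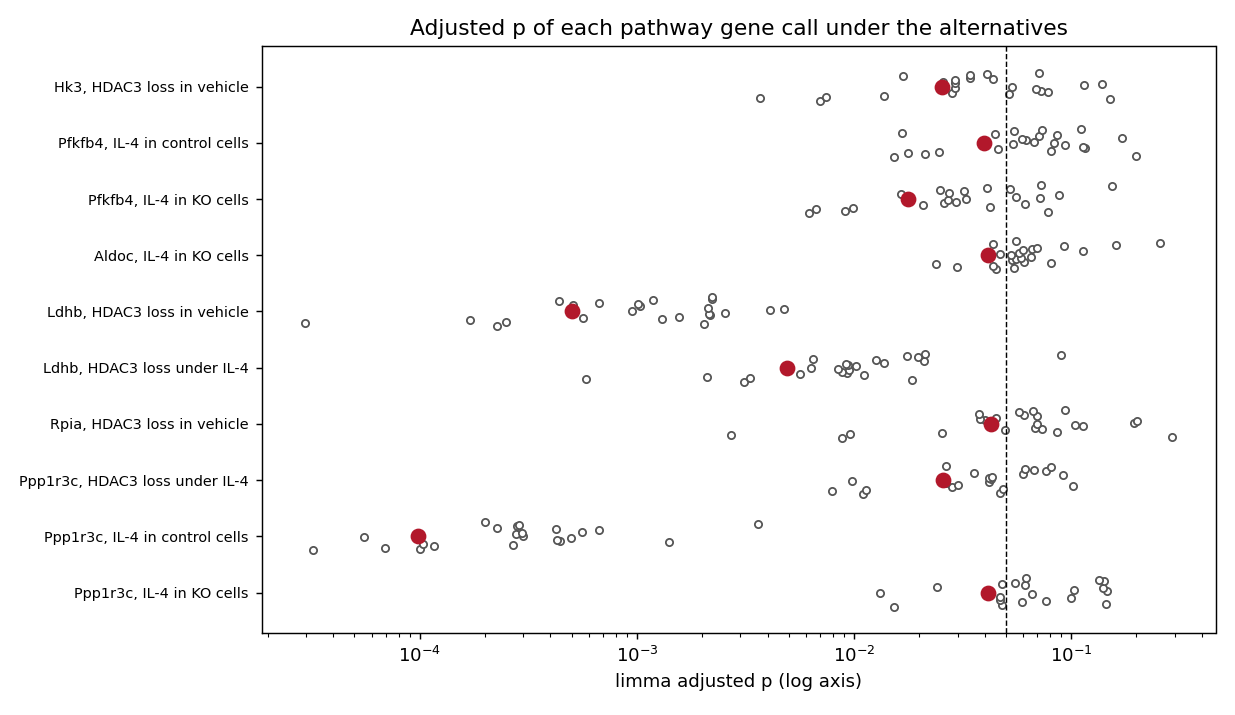
Limma adjusted p (x axis, log scale) of each of the 10 calls of a member (rows), as reported (filled red circles) and under each alternative (open circles), with the threshold of 0.05 as a dashed line. The calls of Ldhb in vehicle and of Ppp1r3c with IL-4 in control cells stay left of the line throughout, and the other 8 cross it in at least 1 alternative. The Ppp1r3c probe passed the filter only through the control IL-4 group, so its points are no support for a change. It was not tested where probes had to be well above background on all arrays.

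The IL-4 response of the members did not differ detectably between genotypes. Of the 41, 0 were called for the difference of responses (limma), against 0.00487% of all genes. At an unadjusted p under 0.05 there were 2, Pdk3 and Ppp1r3c, where 3.93% of all genes were below that level. The 95% interval of this difference lay within 2-fold either way for 38 of 41 members, against 70.5% of all genes. The part of the members' lower SD in this share was not tested.

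Member levels tended to move together from array to array within a group. Control vehicle array 2 was the lowest of its 4 arrays for 25 of 41 members, against 28.8% of all genes. KO vehicle array 7 was the lowest of its group for 31 members (42.2% of all genes) and control IL-4 array 10 for 29 (34.7%). KO IL-4 array 14 was the highest of its group for 27 members (36.4%). For HDAC3 loss in vehicle the median member difference was 0.34 within slide 2, which held control vehicle array 2, and 0.12 and 0.04 within slides 1 and 3. The part of these arrays in the small shared differences was not tested.

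Of 14 transporters of glucose, lactate and pyruvate, 13 were tested and 3 were called in at least 1 comparison. The share called was 7.69%, 7.69% and 15.4% with HDAC3 loss in vehicle, HDAC3 loss under IL-4 and IL-4 in control cells. Of all genes, 4.76%, 3.66% and 5.78% were called in these comparisons. Mpc1, a subunit of the mitochondrial pyruvate carrier, was higher with HDAC3 loss in vehicle (2.36 ± 0.0701, SD, n = 3, against 1.63 ± 0.143, SD, n = 4; log2 fold change 0.73, limma adjusted p = 0.0212). Under IL-4 Mpc1 was also higher in KO cells (2.75 ± 0.361 against 1.86 ± 0.182, SD, n = 3 each; 0.89, adjusted p = 0.0121, limma). Slc2a1, the GLUT1 glucose transporter, rose by 0.66 with IL-4 in control cells (adjusted p = 0.0121), and Slc2a3, the GLUT3 transporter, fell by 0.77 (adjusted p = 0.0137). The Mpc1 call in vehicle was lost without control vehicle array 1, 2 or 3 (adjusted p = 0.0501, 0.0639 and 0.06) or KO vehicle array 5 or 6 (0.094 and 0.103), and under IL-4 without control IL-4 array 10 or 12 (0.0587 and 0.0526). Without control IL-4 array 9 the adjusted p of Slc2a1 was 0.0524, and without array 10 that of Slc2a3 was 0.0661. In IL-4 in KO cells 0 of the 13 were called (limma), where 2.24% of all genes were called. There 3 had an unadjusted limma p under 0.05, where 12.4% of all genes did.

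Of 59 further enzymes of glucose and glycogen metabolism, 47 were tested and up to 3 were called in a comparison. The share called was 2.13% with HDAC3 loss in vehicle and 2.13% with HDAC3 loss under IL-4, against 4.76% and 3.66% of all genes. It was 6.38% with IL-4 in control cells and 4.26% with IL-4 in KO cells, against 5.78% and 2.24%. Ppp1r3b, a relative of Ppp1r3c that also targets the phosphatase to glycogen, rose by 0.74 with HDAC3 loss in vehicle (limma adjusted p = 0.00494), a call kept in all 23 alternatives. Pdp1, a phosphatase that switches pyruvate dehydrogenase on, rose with IL-4 by 0.71 in KO cells and 0.52 in control cells (adjusted p = 0.00996 and 0.019). Pgm2l1, which makes glucose 1,6-bisphosphate, fell with IL-4 by 0.99 in KO cells and 0.71 in control cells (adjusted p = 0.00108 and 0.00251), and both calls were kept in all 23 alternatives. Pck2, the mitochondrial phosphoenolpyruvate carboxykinase, fell by 0.59 with IL-4 in control cells (adjusted p = 0.0206). Pgm5, a relative of phosphoglucomutase, fell by 0.999 with HDAC3 loss under IL-4 (adjusted p = 0.0134), but not with the mean of its probes (0.271). Some of these calls were lost without 1 array. The adjusted p of Pdp1 in control cells was 0.0563, 0.0601 and 0.0968 without control vehicle array 2 or control IL-4 array 9 or 12, and in KO cells 0.0545 without KO vehicle array 7. That of Pck2 ran from 0.0584 to 0.112 without control vehicle array 3 or 4 or control IL-4 array 10 or 12, and that of Pgm5 was 0.062 and 0.0538 without control IL-4 array 12 or KO IL-4 array 14 (limma).

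The hypoxia-inducible factors are known to drive many glycolytic genes, and 21 of 24 genes of that response were tested. The share called was 23.8% with HDAC3 loss in vehicle and 23.8% with HDAC3 loss under IL-4, against 4.76% and 3.66% of all genes. It was 23.8% with IL-4 in control cells and 9.52% with IL-4 in KO cells, against 5.78% and 2.24%. With HDAC3 loss in vehicle 3 rose and 2 fell. Epas1, which encodes HIF-2 alpha, rose by 1.59 (limma adjusted p = 0.00071), Bhlhe40, a transcription factor, by 1.83 (0.0051) and Vegfa, a vascular growth factor, by 0.90 (0.000348). Ndrg1 and Ddit4, both known to respond to hypoxia, fell by 1.30 (0.00324) and 0.98 (0.00439), so the list did not move one way. These 5 calls were kept in all 23 alternatives. Under IL-4, KO cells had higher Epas1 (log2 fold change 0.996) and Vegfa (0.66) than control cells, while Ndrg1, Ankrd37 and Ddit4 fell by 0.96, 0.65 and 1.04 (limma). IL-4 in control cells raised Bhlhe40 by 3.54, Epas1 by 1.003 and Ankrd37 by 0.87, while Ndrg1 and Vegfa fell by 0.89 and 0.41. In KO cells IL-4 raised Bhlhe40 by 2.51 and lowered Vegfa, which fell by 0.66.

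Several calls of that list were lost without 1 array. For HDAC3 loss under IL-4, the adjusted p of Epas1 ran from 0.0777 to 0.0967 without control IL-4 array 10 or 12 or KO IL-4 array 14, and that of Ankrd37 was 0.0542 and 0.0749 without control IL-4 array 9 or 12. The Ndrg1 call there was lost in 14 of 23 alternatives, with 0.0537 to 0.129 without control vehicle array 3 or 4, KO vehicle array 5, 6 or 7, control IL-4 array 9 or 12, or KO IL-4 array 13 or 15. For IL-4 in control cells, Epas1 was at 0.0506 without control IL-4 array 9. There Ndrg1 ran from 0.0597 to 0.0911 without control vehicle array 1, 3 or 4 or control IL-4 array 10 or 12, and Vegfa from 0.0532 to 0.13 without control vehicle array 1, 2 or 4, KO vehicle array 5 or control IL-4 array 9 or 12 (limma).

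Of 15 tested regulators of glycolysis, 0 were called in any of the 4 comparisons (limma), where 2.24% to 5.78% of all genes were called. At an unadjusted p under 0.05 there was 1 with HDAC3 loss in vehicle (13.7% of all genes), 1 with HDAC3 loss under IL-4 (15%), 3 with IL-4 in control cells (14.6%) and 0 with IL-4 in KO cells (12.4%).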

How the data were processed

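RNA of 13 samples was amplified with a NuGEN kit and labelled with Cy3, per the labels' protocols. Each deposited scanner file holds linear intensity values of the spots in 1 channel. Per the file headers, Feature Extraction 10.5.1.1 (Agilent) made them, while the submitters' processing notes name version 9.53 and limma. Processed signals are background-corrected, per the file headers, and probe coordinates are mm9. The authors also deposited a table of 39280 rows with linear intensity values. Its column medians are 181 to 181.5, it correlated at 0.998 or more with the scanner values, and its scale and direction match them. How the authors normalized it is not stated there.

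Spots of a probe were averaged after control spots and outliers had been removed. Of 41174 probes, 101 were left out as outliers and 29059 were kept because 1 or more groups had them well above background on all their arrays. The brightest kept probe stood for each gene. Of the members' 77 probes, 64 were kept. Genes were named through RefSeq accessions (25039 probes) or symbols (7950), and 8084 probes kept the file's name. No spot was saturated, and the number of arrays limits the precision.

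Log2 signal minus the array's 75th percentile was modelled by 4 group means in limma 3.58.1 (R 4.3.3), with two-sided moderated tests from lmFit and eBayes. P-values were adjusted by Benjamini-Hochberg over the 20546 genes, and a gene was called below 0.05. No set test was run. The script was tested on simulated data. All 43 members are accounted for, and of other genes up to 4 per list with the smallest adjusted p in a comparison are named. In 3 comparisons of the hypoxia list all 5 called genes are named, the fifth chosen after its values were seen. The members and lists were chosen with earlier results of these data known. Alternatives were other normalizations, filters and probe rules, slide as a block, only the groups compared, and leaving out arrays.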

Additional observations from a re-analysis of the deposited data

Results flagged for a closer look

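Of the 41 tested genes, each examined in the control vehicle group of 4 arrays, 2 had an array far from the others by Dixon's test, which chance alone gives in about 1 of 20 groups. Aldoa was at 6.84 on control vehicle array 2 and between 7.06 and 7.10 on the other arrays of the group, a gap of 0.844 of the range. Pgk1 was at 6.05 on the same array and between 6.33 and 6.38 on the others, a gap of 0.842 of the range. Neither gene was called in any comparison (limma).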

How the results depend on the processing

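The direction of every called difference of a member was kept in every alternative that gave a value, but counts of called members moved. For HDAC3 loss in vehicle, 3 members rose and 0 fell. The count that rose was 1 with median scaling, with no filter on dim probes, with slide as a block and without the 2 arrays with the fewest spots above background, an alternative chosen after seeing the data, and it ran from 1 to 4 without 1 array. The count that fell was 1 (Pfkfb3) with quantile normalization, normexp, the authors' values and probes above background on all arrays. For HDAC3 loss under IL-4, 1 rose and 1 fell. The count that rose was 2 in the same 4 settings and 0 with only the groups compared. The count that fell was 0 with probes above background on all arrays, slide as a block and only the groups compared, and ran from 0 to 1 without 1 array. For IL-4 in control cells, 2 rose and 0 fell. The count that rose was 5 with quantile normalization, 7 with normexp, 4 with the authors' values, 5 with the mean of all probes and 1 with median scaling, no filter, slide as a block, only the groups compared or without the 2 dim arrays, and ran from 1 to 3 without 1 array. The count that fell was 1, 2 and 1 with quantile normalization, normexp and the authors' values. For IL-4 in KO cells, 2 rose and 1 fell. The count that rose was 1 with median scaling, normexp, the authors' values, probes above background on all arrays or no filter, and 0 with slide as a block, only the groups compared or without the 2 dim arrays. It ran from 0 to 2 without 1 array. The count that fell was 0 with median scaling, no filter, the mean of all probes, slide as a block, only the groups compared or without the 2 dim arrays, and ran from 0 to 1 without 1 array. The cause of these changes was not tested. Median scaling moved the median of all genes for IL-4 in KO cells to 0.05, against -0.06 as reported, and the members' median to 0.17, against 0.07. With normexp the members' median was 0.04 for HDAC3 loss under IL-4 (0.07 as reported), 0.09 for IL-4 in control cells (0.14) and 0.03 for IL-4 in KO cells (0.07). No paired analysis by array number was possible because the numbers in the labels are not shared between groups, and arrays were matched by slide only. Dim probes limit Ppp1r3c, Gys1 and Shpk.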
